A study of Mus musculus with 12 samples.

Results

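The MHC class II presentation genes are the 10 genes H2-Aa, H2-Ab1, H2-Eb1, Cd74, Ciita, H2-DMa, H2-DMb1, H2-DMb2, H2-Oa and H2-Ob. They were taken as a list of names, matched to the Ensembl gene identifiers of the count files, and they are 10 of the 53801 genes counted. All 10 passed the filter on low counts (5 or more counts in at least 1 sample), which 20580 genes passed. The RNA came from dendritic cells (DCs) of the mouse gut, sorted as a CD103+CD11b- subset and a CD103-CD11b+ subset. Each subset was taken from wild type (WT) mice and from Cbfb-cKO mice, with 3 samples in each of the 4 groups and 12 in all. Cbfb encodes the non-DNA-binding partner of the Runx transcription factors, and Cbfb-cKO stands for CbfbF/F:CD11c-Cre, a floxed Cbfb deleted by a Cre transgene under the CD11c promoter. CD11c is carried by DCs but also by some other myeloid and lymphoid cells, so the deletion is not limited to DCs. All mice were of mixed background. The gut DC analyses of the study were of mice 7 weeks old, with no age stated for these RNA samples separately. Sex is not given in the sources used here, nor whether the WT mice of these samples carried the Cre transgene. Each sample came from a different mouse within its group, and whether both subsets were taken from the same mice is not stated. The cells were gated as CD45+CD64-CD11c+MHC-II+, so every sample was selected for class II protein on the cell surface, the product of the genes described here.

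A class II molecule is a pair of an α and a β chain that holds a peptide from endocytosed protein on the surface of an antigen-presenting cell, where CD4+ T cells read it. In the mouse, H2-Aa and H2-Ab1 encode the α and β chains of I-A, and H2-Eb1 encodes the β chain of I-E. Cd74 encodes the invariant chain, which fills the peptide groove until the molecule reaches the endosome. There H2-DM, whose α chain is encoded by H2-DMa and whose β chain by H2-DMb1 or H2-DMb2, exchanges the remaining invariant chain fragment for peptide. H2-DO, the pair of H2-Oa and H2-Ob, binds H2-DM and restrains it, and is best known from B cells and some DCs. Ciita encodes the coactivator that is recruited to class II promoters by proteins bound to their X and Y boxes, and class II transcription depends on it.

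Reads counted on genes ranged from 2161929 to 5863484 per library, a 2.71-fold range, with the shallowest library in Cbfb-cKO CD103-CD11b+ DCs (replicate 3) and the deepest in WT CD103+CD11b- DCs (replicate 3). The sorted subsets carried their labels in the RNA. The summed level of 6 cDC1 markers was 2192 to 3508 CPM (normalised read counts, scaled to each library's total) in the 6 CD103+CD11b- samples and 233 to 490 CPM in the 6 CD103-CD11b+ samples, and all 6 markers were lower in the second subset in both genotypes. Cbfb itself ranged from 161 to 217 CPM in WT and from 170 to 273 CPM in Cbfb-cKO CD103-CD11b+ DCs, and from 199 to 228 CPM against 215 to 290.2 CPM in CD103+CD11b- DCs, so counts over the whole gene did not check the genotype labels.

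Of the 10 genes none was called with genotype, and 2, H2-DMb2 and H2-Oa, were called between the subsets in Cbfb-cKO mice. A gene was called where edgeR's quasi-likelihood test gave a Benjamini-Hochberg adjusted p under 0.05 over all genes tested and a fold change over 1.3. Between Cbfb-cKO and WT CD103-CD11b+ DCs, 0 of the 10 genes were called, where 1.61% of all genes tested were called (1.11% as higher), and 3 genes (H2-DMb2, H2-Oa and H2-Ob, all with Cbfb-cKO samples above WT without overlap) had an unadjusted p under 0.05. Of all genes 17.4% had such a p and 20.1% did not overlap. DESeq2 called H2-Oa and H2-Ob there. Between Cbfb-cKO and WT CD103+CD11b- DCs, 0 were called against 1.02% of all genes (0.797% as lower), with 2 genes (H2-DMb2 and H2-Oa, both with Cbfb-cKO samples below WT without overlap) at an unadjusted p under 0.05 and 0 called by DESeq2. There 10.5% of all genes had such a p and 18.1% did not overlap. Between the subsets in WT mice, CD103-CD11b+ minus CD103+CD11b-, 0 were called against 18.8% of all genes, with 1 gene (H2-Ob) at an unadjusted p under 0.05, as 34.3% of all genes were, and 0 called by DESeq2. Non-overlapping were 2 (H2-DMb1 and H2-Ob) of the 10 and 38.1% of all genes. Between the subsets in Cbfb-cKO mice, 2 of the 10 (H2-DMb2 and H2-Oa) were called, both higher in CD103-CD11b+ DCs, against 16.1% of all genes in either direction and 9.26% in that direction (6.81% in the other). These 2 also had an unadjusted p under 0.05, as 31.9% of all genes did, and with Ciita, lower, they were the 3 without overlap, against 34.0% of all genes. For the difference of the genotype effects between the subsets, the interaction, 0 were called against 0.651% of all genes (0.554% as higher), with 2 genes (H2-DMb2 and H2-Oa) at an unadjusted p under 0.05, against 11.1% of all genes, and 1 (H2-Oa) called by DESeq2. Over the 10 genes the log2 fold change had a median of 0.33, 0.15, -0.06, 0.09 and 0.13 in these 5 comparisons, in the same order, and that of all genes tested was -0.06, -0.02, 0.07, 0.11 and -0.01. The comparisons share samples, so their values are given side by side and are not set against each other.

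Per kilobase of exon, the genes kept a steep order of levels. The mean over the 12 samples was 411 CPM per kb for Cd74, 248 for H2-Eb1, 223 for H2-Ab1 and 162 for H2-Aa. It was 86.8 CPM per kb for Ciita, 84.4 for H2-DMb1, 68.0 for H2-DMa and 65.2 for H2-DMb2, and 42.6 for H2-Ob and 42.4 for H2-Oa. The first 4 genes stood in this order, and above Ciita, in 12 of 12 samples. Below them Ciita lay above H2-DMb1 in 7 of 12 samples, H2-DMb1 above H2-DMa in 11, H2-DMa above H2-DMb2 in 6, H2-DMb2 above H2-Ob in 9, and H2-Ob above H2-Oa in 6, so that of these neighbours H2-DMb1 and H2-DMa alone kept their order in all but 1 sample. Over the longest transcript in place of all exons, H2-Ab1 (471 CPM per kb) passed H2-Eb1 (288), H2-DMa passed H2-DMb1, and H2-Ob passed H2-DMb2. The invariant chain was thus the leading transcript of the 10 per kilobase of exon in every sample, and the H2-DO chains had the lowest means.

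The chains of the class II molecule did not differ between the groups beyond the spread between replicates. H2-Aa (ENSMUSG00000036594, chr17:34282744-34287823, minus strand) was at 691, 538 and 431 CPM in WT CD103+CD11b- DCs, 467, 582 and 607 CPM in WT CD103-CD11b+ DCs, 521, 544 and 812 CPM in Cbfb-cKO CD103+CD11b- DCs, and 531, 555 and 1086 CPM in Cbfb-cKO CD103-CD11b+ DCs. The 4 groups overlapped, and the third replicate of each Cbfb-cKO group stood above the rest. The log2 fold change of Cbfb-cKO against WT was 0.39 in CD103-CD11b+ DCs (SE 0.29, 95% interval -0.25 to 1.03, edgeR adjusted p = 0.510) and 0.18 in CD103+CD11b- DCs (SE 0.29, adjusted p = 0.935). H2-Ab1 (ENSMUSG00000073421, chr17:34257689-34269419, plus strand) and H2-Eb1 (ENSMUSG00000060586, chr17:34305867-34316674, plus strand) had the same lowest and highest samples. H2-Ab1 ran from 404 to 949 CPM and H2-Eb1 from 327 to 839.8 CPM, each with its lowest value in WT CD103+CD11b- replicate 3 and its highest in Cbfb-cKO CD103-CD11b+ replicate 3. Their log2 fold changes with genotype lay between 0.19 and 0.34, with SEs of 0.29 to 0.31.

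Cd74 (ENSMUSG00000024610, chr18:60803848-60812652, plus strand) was at 818, 599 and 456 CPM in WT CD103+CD11b- DCs, 509.9, 712 and 694 CPM in WT CD103-CD11b+ DCs, 587, 613 and 966 CPM in Cbfb-cKO CD103+CD11b- DCs, and 549, 591 and 1185 CPM in Cbfb-cKO CD103-CD11b+ DCs. The lowest and the highest sample of the invariant chain were those of the chains, and the groups overlapped. Its log2 fold change with genotype was 0.28 (SE 0.32, 95% interval -0.43 to 0.99, edgeR adjusted p = 0.693) in CD103-CD11b+ DCs and 0.21 (SE 0.32, 95% interval -0.50 to 0.92, adjusted p = 0.932) in CD103+CD11b- DCs. Without Cbfb-cKO CD103-CD11b+ replicate 3, the genotype difference in CD103-CD11b+ DCs was -0.02 for H2-Aa, -0.09 for H2-Ab1 and for H2-Eb1, and -0.16 for Cd74, so its sign rested on that library.

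The spread of these 4 genes moved with library depth. Their raw counts hardly rose with the library total: Cd74 held 2137 to 2822 counts per library, H2-Aa 1747 to 2664, H2-Ab1 1600 to 2498 and H2-Eb1 1369 to 2021, while the totals ranged 2.71-fold. The slope of log2 count on log2 library total, which is 1 for a gene whose counts keep pace with the library, was 0.18 for Cd74, 0.23 for H2-Eb1, 0.29 for H2-Ab1 and 0.28 for H2-Aa. Over 7155 well counted genes the median slope was 1.14, with a 10th percentile of 0.77. It fell with the density of reads on the gene, from 1.25 over the 2720 genes with under 0.05 counts per base to 0.29 over the 12 genes with 0.8 or more. Cd74 ranked 2nd of the 7155 genes by counts per base, H2-Eb1 9th, H2-Ab1 10th and H2-Aa 28th. The authors removed reads marked as duplicates, a step that acts most where reads lie densest, and its part in these slopes was not tested.

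**Figure D1:**
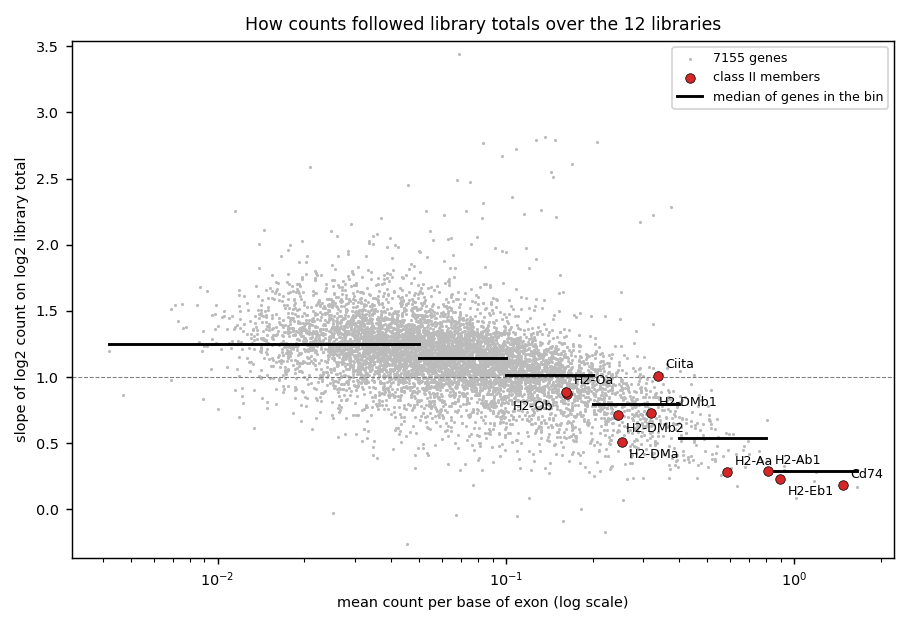
Slope of log2 count on log2 library total over the 12 libraries (y axis) against counts per base of exon (x axis, log scale) for 7155 genes in grey, with the 10 class II genes in red and the median of each bin of counts per base as a black line. Cd74, H2-Aa, H2-Ab1 and H2-Eb1 have slopes of 0.18 to 0.29, at the dense end, where the bin medians are lowest, whereas Ciita has a slope of 1.01.

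Adding the log2 library total to the model, an alternative chosen after seeing the data, narrowed the SE of these 4 genes with genotype from between 0.29 and 0.32 to between 0.080 and 0.095. The genotype difference of Cd74 was then 0.04 in CD103-CD11b+ DCs (95% interval -0.14 to 0.21) and 0.00 in CD103+CD11b- DCs (95% interval -0.18 to 0.18). That of H2-Aa was 0.17 (95% interval -0.03 to 0.38) and -0.01 (95% interval -0.22 to 0.20). No class II chain was called in this fit. In CD103-CD11b+ DCs its intervals reached 0.38 for H2-Aa and 0.21 for Cd74, where those of the 4 groups alone reached 1.03 and 0.99. Counts of these 4 genes hardly rose with the library total (slopes of 0.18 to 0.29). The narrower intervals are therefore not taken as bounds on a change in expression.

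The ratio of the I-A chains within a sample does not depend on how libraries are scaled. H2-Aa over H2-Ab1, on the log2 scale, was 0.064 ± 0.032 (SD, n = 3) in WT CD103+CD11b- DCs, 0.11 ± 0.015 (SD, n = 3) in WT CD103-CD11b+ DCs, 0.049 ± 0.024 (SD, n = 3) in Cbfb-cKO CD103+CD11b- DCs and 0.18 ± 0.024 (SD, n = 3) in Cbfb-cKO CD103-CD11b+ DCs. Within each genotype the 3 CD103-CD11b+ samples lay above the 3 CD103+CD11b- samples. The difference of 0.088 between subsets passed the exact permutation test (two-sided, labels permuted within genotype, p = 0.005, the smallest that its 400 arrangements allow, adjusted p = 0.0167 over 10 ratio tests). It corresponds to a shift of a few percent. Cd74 over the sum of H2-Aa and H2-Ab1 differed by 0.0082 between subsets (adjusted p = 0.9, exact permutation test) and by -0.026 between genotypes (adjusted p = 0.6625, exact permutation test).

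Ciita (ENSMUSG00000022504, chr16:10480059-10528418, plus strand), the coactivator on which class II transcription depends, was not called in any comparison. Its level was 1068, 923 and 749 CPM in WT CD103+CD11b- DCs and 891, 648 and 586 CPM in WT CD103-CD11b+ DCs. In Cbfb-cKO mice it was 906, 868 and 992 CPM in CD103+CD11b- DCs and 764, 689 and 849 CPM in CD103-CD11b+ DCs. The genotypes overlapped in both subsets, while in Cbfb-cKO mice all 3 CD103-CD11b+ samples lay below all 3 CD103+CD11b- samples. The log2 fold change with genotype was 0.11 in CD103-CD11b+ DCs (SE 0.17, 95% interval -0.27 to 0.50, edgeR adjusted p = 0.777) and 0.01 in CD103+CD11b- DCs (SE 0.17, 95% interval -0.37 to 0.40, adjusted p = 1). Between subsets it was -0.37 in WT (SE 0.17, adjusted p = 0.165) and -0.27 in Cbfb-cKO mice (SE 0.17, adjusted p = 0.325). Without WT CD103-CD11b+ replicate 1 the WT difference was -0.62 and was called (edgeR adjusted p = 0.0341, 0.0158 to 0.444 over the alternatives, the smallest of them with a fold change under 1.3 and so not called).

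By the fixed rule of likeness, the 5 genes whose levels followed Ciita most closely within both subsets were Rnase6, Apbb1ip, Dcaf7, Arhgap30 and Elf4. Their Pearson r with Ciita was 0.87 to 0.97 over the 6 samples of a subset, among 9924 genes compared. Among the 5 genes closest to the summed class II chains and Cd74 were Cfl1, Myh9, Actb and Tmsb4x, with r of 0.985 or more. The summed level also followed the log2 library total, with r = -0.99 in CD103+CD11b- and r = -0.97 in CD103-CD11b+ DCs, so likeness to it is also likeness to depth. Ciita followed the total in CD103+CD11b- DCs (r = -0.91) but not in CD103-CD11b+ DCs (r = -0.03). These are descriptions over 6 samples that share their depth.

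The H2-DM and H2-DO genes lie within one stretch of chromosome 17 and include the 2 called genes. H2-DMb1 (ENSMUSG00000079547, chr17:34153072-34160230) and H2-DMb2 (ENSMUSG00000037548, chr17:34143307-34151555) are neighbouring copies on the plus strand that encode alternative β chains of H2-DM. H2-Oa (ENSMUSG00000024334, chr17:34092340-34095234) and H2-Ob (ENSMUSG00000041538, chr17:34238903-34254414), both on the plus strand, encode the α and β chains of H2-DO. Coordinates are of GRCm38. Since the members of each pair differed in their pattern over these samples, their RefSeq promoter windows (GRCm38.p6, plus strand) are shown for comparison. Capitals mark matches, on either strand, to CCAAT (the core of the Y box), GNNAC followed directly by NNATG (the core of the X1 box), and TGTGGT or TGCGGT (Runx motifs), all of which were searched on both strands.
H2-DMb1, chr17:34152941-34153240: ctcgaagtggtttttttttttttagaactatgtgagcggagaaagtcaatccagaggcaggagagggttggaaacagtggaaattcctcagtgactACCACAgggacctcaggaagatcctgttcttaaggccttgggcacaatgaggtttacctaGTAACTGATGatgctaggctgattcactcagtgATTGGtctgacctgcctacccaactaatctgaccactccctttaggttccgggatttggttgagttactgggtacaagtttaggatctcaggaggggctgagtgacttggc
H2-DMb2, chr17:34144999-34145298: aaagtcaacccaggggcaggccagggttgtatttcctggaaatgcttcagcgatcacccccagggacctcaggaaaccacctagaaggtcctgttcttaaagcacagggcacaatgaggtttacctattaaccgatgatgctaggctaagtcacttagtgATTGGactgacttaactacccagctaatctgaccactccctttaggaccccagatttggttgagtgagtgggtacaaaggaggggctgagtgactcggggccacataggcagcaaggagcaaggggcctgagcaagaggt
H2-Oa, chr17:34092129-34092428: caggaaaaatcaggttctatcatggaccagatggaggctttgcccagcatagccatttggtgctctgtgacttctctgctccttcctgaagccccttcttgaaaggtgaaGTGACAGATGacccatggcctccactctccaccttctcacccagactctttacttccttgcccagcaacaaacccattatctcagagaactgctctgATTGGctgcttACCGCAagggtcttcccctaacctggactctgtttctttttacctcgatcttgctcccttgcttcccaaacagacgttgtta
H2-Ob, chr17:34238655-34238954: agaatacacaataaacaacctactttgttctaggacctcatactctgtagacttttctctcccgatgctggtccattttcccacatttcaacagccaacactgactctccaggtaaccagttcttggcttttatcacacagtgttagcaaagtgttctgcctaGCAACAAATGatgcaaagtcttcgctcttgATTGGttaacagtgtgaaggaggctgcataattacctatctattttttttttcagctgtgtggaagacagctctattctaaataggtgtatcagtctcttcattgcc

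The Y box core stands in all 4 windows, reading ATTGG on the strand shown. Its first base lies 61, 90, 43 and 57 bases before the RefSeq start of the H2-DMb1, H2-DMb2, H2-Oa and H2-Ob window. That start can differ from the gene start given above. The H2-DMb2 window begins at 34144999, inside the gene coordinates, which begin at 34143307. CCAAT is found in 37.4% of the 32851 promoter windows of the same length. The X1 core is found in the windows of H2-DMb1, H2-Oa and H2-Ob, 94, 140 and 87 bases before the start, and in 8.97% of all windows. It is not found in the window of H2-DMb2, which says only that these letters are absent from it. TGTGGT (16.8% of all windows) stands on the minus strand in the H2-DMb1 window, and TGCGGT (6.45%) on the minus strand in the H2-Oa window. A match of letters is a description and not a bound site.

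H2-DMb2 carried the largest difference between the subsets among the 10 genes in Cbfb-cKO mice. It was at 123, 102 and 86.3 CPM in WT CD103+CD11b- DCs and 122, 115 and 116 CPM in WT CD103-CD11b+ DCs. In Cbfb-cKO mice it was at 79.0, 68.6 and 81.7 CPM in CD103+CD11b- DCs and at 138, 139 and 197 CPM in CD103-CD11b+ DCs. All 3 Cbfb-cKO CD103+CD11b- samples lay below every other sample and all 3 Cbfb-cKO CD103-CD11b+ samples above every other, while the WT subsets overlapped. In Cbfb-cKO mice the level in CD103-CD11b+ DCs was 2.06-fold that in CD103+CD11b- DCs (log2 fold change 1.05, SE 0.17, 95% interval 0.68 to 1.41, edgeR adjusted p = 0.00158, 2.43e-06 to 0.0161 over the alternatives). In WT mice the difference was 0.18 (SE 0.17, 95% interval -0.18 to 0.54, edgeR adjusted p = 0.478).

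With genotype, H2-DMb2 moved in opposite directions in the 2 subsets, in neither past the test over all genes. It was higher in Cbfb-cKO CD103-CD11b+ DCs by 0.42 (SE 0.17, 95% interval 0.06 to 0.79, edgeR adjusted p = 0.219) and stood at -0.44 in CD103+CD11b- DCs (SE 0.17, 95% interval -0.81 to -0.07, edgeR adjusted p = 0.341). The difference of these effects was 0.86 (SE 0.23, 95% interval 0.35 to 1.38, unadjusted p = 0.00356, edgeR adjusted p = 0.172, 0.062 to 0.385 over the alternatives). It did not pass the threshold in any alternative.

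H2-Oa had the same arrangement of groups. It was at 59.2, 59.9 and 51.4 CPM in WT CD103+CD11b- DCs and 63.2, 47.6 and 52.1 CPM in WT CD103-CD11b+ DCs. In Cbfb-cKO mice it was at 45.0, 38.8 and 48.5 CPM in CD103+CD11b- DCs and 74.1, 77.8 and 97.4 CPM in CD103-CD11b+ DCs. The Cbfb-cKO CD103-CD11b+ samples stood above every other sample, the Cbfb-cKO CD103+CD11b- samples below every WT sample of their subset, and the WT subsets overlapped. The subset difference in Cbfb-cKO mice was 1.88-fold (log2 fold change 0.91, SE 0.16, 95% interval 0.57 to 1.25, edgeR adjusted p = 0.00246, 1.13e-05 to 0.0198 over the alternatives) and in WT mice -0.06 (SE 0.15, 95% interval -0.40 to 0.28, adjusted p = 0.824).

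The genotype difference of H2-Oa was 0.61 in CD103-CD11b+ DCs (SE 0.15, 95% interval 0.27 to 0.95, edgeR adjusted p = 0.0755, 0.0165 to 0.264 over the alternatives) and -0.37 in CD103+CD11b- DCs (SE 0.16, 95% interval -0.71 to -0.02, edgeR adjusted p = 0.424). Their difference was 0.97 (SE 0.22, 95% interval 0.49 to 1.46, unadjusted p = 0.000984, edgeR adjusted p = 0.0908, 0.0149 to 0.29 over the alternatives). DESeq2 called it, with 0.93 and an adjusted p of 0.0149. So did edgeR with the replicate number as a block in each genotype (0.98, adjusted p = 0.0475). That block pairs the samples of both genotypes by number, although same-numbered WT samples correlated at 0.473, -0.132 and 0.399. Part of H2-Oa overlaps BC051537 on the opposite strand, which shares 15.5% of its 50-base exon windows, and the counting did not use strand, so reads of the pair cannot be told apart there.

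H2-Ob, the partner chain, followed another pattern. It was at 231, 229.7 and 226 CPM in WT CD103+CD11b- DCs and at 192, 161 and 166 CPM in WT CD103-CD11b+ DCs. In Cbfb-cKO mice it was at 252, 226 and 290.2 CPM in CD103+CD11b- DCs and 238, 219.6 and 319.7 CPM in CD103-CD11b+ DCs. The WT CD103-CD11b+ samples were the lowest of the 12, and the other 3 groups overlapped. The Cbfb-cKO value in CD103-CD11b+ DCs differed from WT by 0.58 (SE 0.15, 95% interval 0.25 to 0.91, edgeR adjusted p = 0.0761, 0.0143 to 0.273 over the alternatives), and WT CD103-CD11b+ from WT CD103+CD11b- DCs by -0.40 (SE 0.15, 95% interval -0.73 to -0.08, edgeR adjusted p = 0.0794, 0.0154 to 0.184 over the alternatives). Neither was called in the model of the 4 groups. The first was called by DESeq2 (adjusted p = 0.0143), with 5 counts required in every sample (edgeR adjusted p = 0.0373) and with the replicate block (0.0433). The second was called with the replicate block (edgeR adjusted p = 0.0463), the block within genotype (0.0154), the log2 library total as a covariate (0.0439), library size in place of TMM (0.0431) and without Cbfb-cKO CD103-CD11b+ replicate 3 (-0.40, 0.0283).

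H2-DMb1, the other β chain gene, was not called between subsets in the model of the 4 groups. It was at 176, 154 and 135 CPM in WT CD103+CD11b- DCs and 115, 116 and 119 CPM in WT CD103-CD11b+ DCs, and at 151, 147 and 206 against 107, 109 and 166 CPM in Cbfb-cKO mice. The groups did not overlap in WT mice, and in Cbfb-cKO mice only the shallowest library, replicate 3 of the CD103-CD11b+ DCs, reached into the other group. The log2 difference was -0.41 in WT (SE 0.19, edgeR adjusted p = 0.152) and -0.41 in Cbfb-cKO mice (SE 0.19, edgeR adjusted p = 0.166, 0.0127 to 0.46 over the alternatives). With a block within each genotype, which pairs the samples of both genotypes by number, the Cbfb-cKO difference was -0.42 and was called (edgeR adjusted p = 0.0287). Without replicate 3 of the Cbfb-cKO CD103-CD11b+ DCs it was -0.64 (edgeR adjusted p = 0.0240). With genotype H2-DMb1 differed by 0.12 in each subset (SE 0.19, edgeR adjusted p = 0.776 and 0.931).

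H2-DMa (ENSMUSG00000037649, chr17:34119541-34139101, plus strand), the single α chain gene of H2-DM, ran from 184 to 344 CPM, with overlap between all groups. It differed with genotype by 0.28 in CD103-CD11b+ DCs (SE 0.24, edgeR adjusted p = 0.580) and by 0.15 in CD103+CD11b- DCs (SE 0.24, edgeR adjusted p = 0.935). Its counts rose with library total with a slope of 0.51, between those of the class II chains and those of H2-Oa (0.89) and H2-Ob (0.87).

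**Figure D2:**
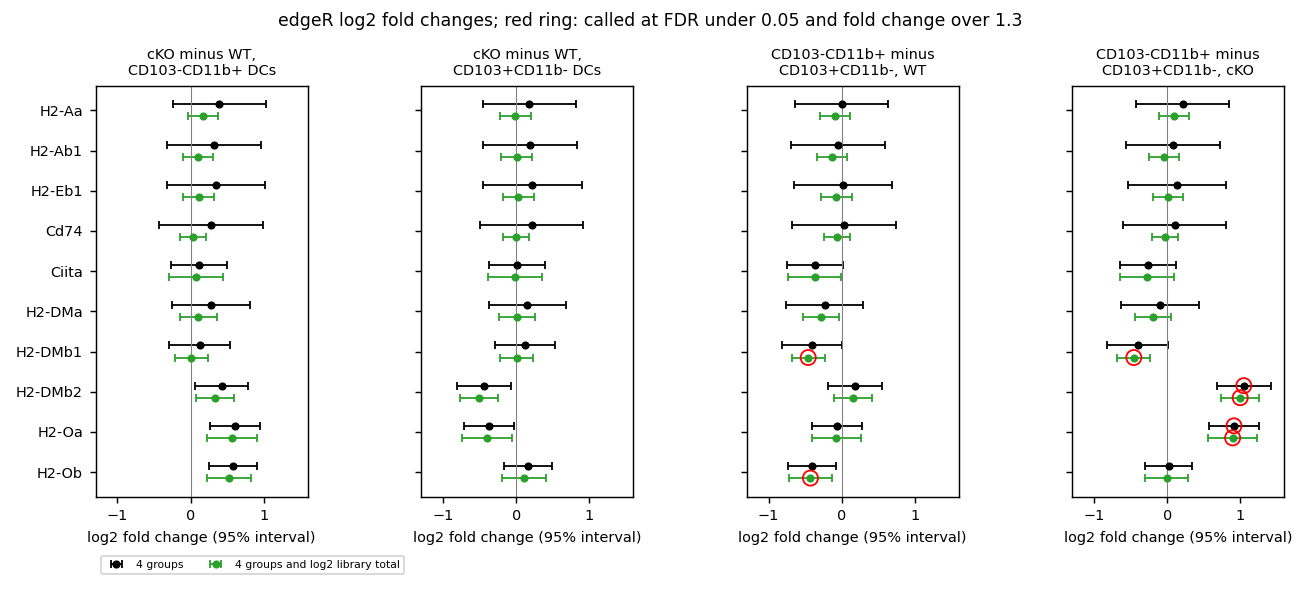
Log2 fold change of the 10 genes in the 4 pairwise comparisons, with 95% intervals from edgeR, in black from the model of the 4 groups, in green with the log2 library total added, and with a red ring where the gene was called. In black only H2-DMb2 (1.05) and H2-Oa (0.91), between subsets in Cbfb-cKO mice, are ringed, and in green also H2-DMb1 in both genotypes and H2-Ob in WT mice.

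Set against its neighbour, H2-DMb2 shifted with the subset in both genotypes. The ratio of H2-DMb2 to H2-DMb1 counts was 0.701, 0.662 and 0.642 in WT CD103+CD11b- DCs and 1.06, 0.989 and 0.973 in WT CD103-CD11b+ DCs. In Cbfb-cKO mice it was 0.522, 0.466 and 0.396 in CD103+CD11b- DCs and 1.28, 1.28 and 1.19 in CD103-CD11b+ DCs. The 4 groups did not overlap, and both WT groups lay between the Cbfb-cKO groups. The mean log2 ratio was 0.59 higher in CD103-CD11b+ DCs in WT and 1.45 higher in Cbfb-cKO mice, 1.02 on average (two-sided exact permutation test, p = 0.005, adjusted p = 0.0167). With genotype it differed by -0.54 in the CD103+CD11b- subset and by 0.31 in the other (p = 0.1 for each by the exact permutation test, the smallest that 3 samples against 3 allow), and by -0.12 over both (adjusted p = 0.65). The pair share sequence: 22.7% of the 50-base exon windows of H2-DMb1 and 25.9% of those of H2-DMb2 occur in another gene, 369 windows in both, and reads from those cannot be placed with certainty.

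The H2-DO chains behaved likewise. The ratio of H2-Oa to H2-Ob counts was 0.257, 0.261 and 0.228 in WT CD103+CD11b- DCs and 0.329, 0.297 and 0.314 in WT CD103-CD11b+ DCs. In Cbfb-cKO mice it was 0.179, 0.173 and 0.168 in CD103+CD11b- DCs and 0.311, 0.355 and 0.305 in CD103-CD11b+ DCs. In each genotype all 3 CD103-CD11b+ samples lay higher, and the Cbfb-cKO CD103+CD11b- samples were the lowest of the 12. On the log2 scale the subset difference was 0.34 in WT and 0.90 in Cbfb-cKO mice, 0.62 on average (two-sided exact permutation test, p = 0.005, adjusted p = 0.0167). The genotype difference was -0.52 in CD103+CD11b- DCs, with no overlap, and 0.04 in CD103-CD11b+ DCs (adjusted p = 0.175 for both together, exact permutation test). The summed H2-DO over the summed H2-DM genes differed by -0.013 between subsets (adjusted p = 0.9, exact permutation test). Between genotypes it differed by 0.18 (adjusted p = 0.29, exact permutation test), with 0.03 in CD103+CD11b- and 0.33 in CD103-CD11b+ DCs. This summed ratio moved with depth. In each group it was lowest in the shallowest library and highest in the deepest. The slopes on library total were 0.87 and 0.89 for the H2-DO genes and 0.51 to 0.73 for the H2-DM genes. The chain ratios thus differed between subsets. For the summed ratio no difference was detected, and the part of depth in it was not tested.

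**Figure D3:**
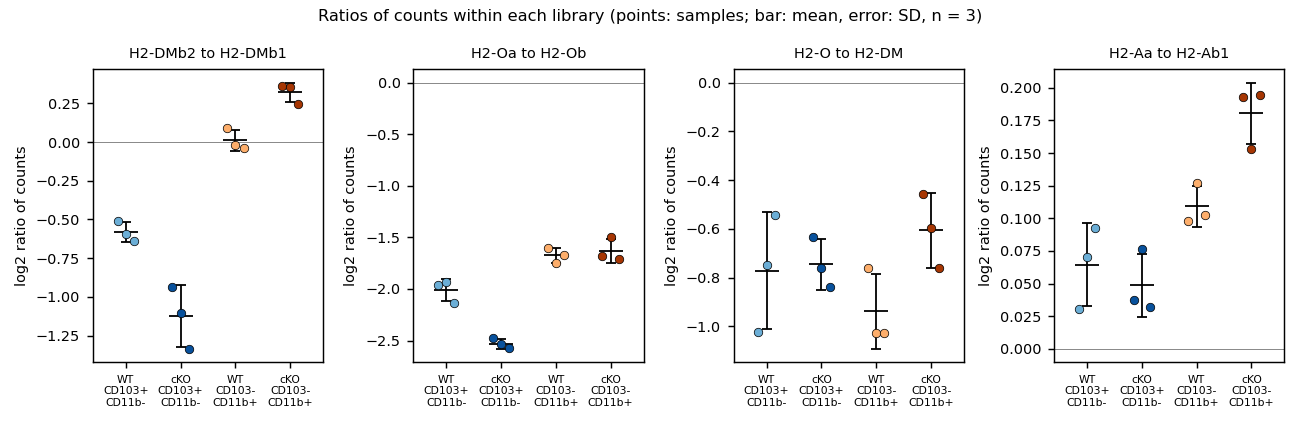
Log2 ratios of counts within each sample for 4 pairs of genes or sums, with 1 point per sample, a bar at the mean of each group of 3 and error bars for the SD. H2-DMb2 to H2-DMb1, H2-Oa to H2-Ob and H2-Aa to H2-Ab1 are higher in CD103-CD11b+ than in CD103+CD11b- DCs in both genotypes.

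Beside the 10 genes stand H2-Eb2, a second I-E β-like gene, and H2-Ea-ps, the α chain locus of I-E. H2-Eb2 (ENSMUSG00000067341, chr17:34325665-34341412, plus strand) was the class II gene with the largest called change. It was at 10.6, 11.0 and 11.6 CPM in WT CD103+CD11b- DCs and 11.2, 6.33 and 10.5 CPM in WT CD103-CD11b+ DCs, and in Cbfb-cKO mice at 5.10, 2.93 and 6.65 CPM in CD103+CD11b- DCs and 50.3, 29.5 and 29.1 CPM in CD103-CD11b+ DCs. All Cbfb-cKO CD103-CD11b+ samples lay above all WT samples and all Cbfb-cKO CD103+CD11b- samples below all WT samples of their subset, the arrangement seen for H2-DMb2 and H2-Oa. It rose in Cbfb-cKO CD103-CD11b+ DCs by 1.95 (SE 0.33, edgeR adjusted p = 0.0172, 3.55e-06 to 0.119 over the alternatives) and stood at -1.20 in CD103+CD11b- DCs (SE 0.34, edgeR adjusted p = 0.161). The difference of the effects, 3.15, was called (SE 0.48, 95% interval 2.10 to 4.20, edgeR adjusted p = 0.0179, 9.33e-07 to 0.0653 over the alternatives), as was the difference between subsets in Cbfb-cKO mice, 2.91 (SE 0.35, edgeR adjusted p = 0.000261). Leaving out Cbfb-cKO CD103-CD11b+ replicate 1 ended the genotype call (1.66, adjusted p = 0.0632), as did leaving out WT CD103-CD11b+ replicate 2 (1.76, 0.0597) or replicate 3 (2.05, 0.0545), and the fit to the 6 samples of the subset alone (1.99, 0.119). The interaction call was lost when 1 of 5 libraries was left out, namely WT CD103+CD11b- replicate 1 (3.18, 0.0545) or 2 (3.15, 0.0653), WT CD103-CD11b+ replicate 3 (3.23, 0.0523), Cbfb-cKO CD103+CD11b- replicate 1 (3.20, 0.0595) or Cbfb-cKO CD103-CD11b+ replicate 1 (2.83, 0.0540). H2-Ea-ps held at most 5 counts in a library and was not called.

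The H2-Eb2 window, shown because this gene had that change, has the Y and X1 cores 100 and 132 bases before the start.
H2-Eb2, chr17:34325425-34325724: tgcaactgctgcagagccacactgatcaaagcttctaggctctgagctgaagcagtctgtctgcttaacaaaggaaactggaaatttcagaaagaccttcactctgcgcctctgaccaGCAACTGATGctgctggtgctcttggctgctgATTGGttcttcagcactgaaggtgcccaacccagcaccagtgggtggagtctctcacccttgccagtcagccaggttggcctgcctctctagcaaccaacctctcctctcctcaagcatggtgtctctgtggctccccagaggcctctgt

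Markers of other cells moved with some of these groups. The summed level of 10 B cell markers was 317 to 500.1 CPM in WT and 608 to 1094 CPM in Cbfb-cKO CD103-CD11b+ DCs, with 2 of 10 called higher (Ms4a1 and Cd22, each lost in 1 of 21 alternatives), and 289 to 425 against 286 to 314 CPM in CD103+CD11b- DCs, with 0 of 10 called. The median log2 fold change of the 10 markers with genotype was 1.55 in CD103-CD11b+ and -0.34 in CD103+CD11b- DCs. In the Cbfb-cKO CD103-CD11b+ samples they summed to 1094, 626 and 608 CPM, with 10, 10 and 8 of the 10 markers counted. Macrophage markers, 8 genes, summed to 171 to 389 CPM in WT and 339 to 513 CPM in Cbfb-cKO CD103-CD11b+ DCs, with 1 of 8 called higher (Adgre1, 1.93). The Adgre1 call was lost in 7 of its 21 alternatives, with edgeR adjusted p of up to 0.122, 6 of them without a single library. CD11b+ DC markers there summed to 932 to 998 CPM in WT and 1038 to 1608 CPM in Cbfb-cKO mice, with 1 of 6 called higher (Clec4a4, lost in 10 of its 20 alternatives), and 1 of 6 cDC1 markers (Itgae, lost in 7 of its 21 alternatives) was called lower. In CD103+CD11b- DCs, CD11b+ DC markers summed to 354 to 582 CPM in WT and 82.1 to 121 CPM in Cbfb-cKO mice, with 4 of 6 called lower (Clec4a4, Irf4, Sirpa and Cd209a). Without WT CD103+CD11b- replicate 1 the last 3 of these lost the call (edgeR adjusted p = 0.107, 0.167 and 0.171), and Sirpa and Cd209a lost it in 11 and 12 of their 21 alternatives. Plasmacytoid DC markers there summed to 820.2 to 1870 against 376 to 726 CPM, with 0 of 5 called. Between the subsets in Cbfb-cKO mice, 5 of 10 B cell markers, 6 of 6 CD11b+ DC markers and 6 of 8 macrophage markers were called higher in CD103-CD11b+ DCs, and 1 of 5 plasmacytoid DC markers lower. For the interaction, Cd22 and Clec4a4 were called higher. The Cd22 call there was lost in 13 of its 21 alternatives (edgeR adjusted p of up to 0.137) and the Clec4a4 call in 0 of 20. In bulk samples, fewer cells of a type and less RNA per cell cannot be told apart. Epithelial markers, 6 genes, summed to 197 to 353 CPM in WT and 53.5 to 101 CPM in Cbfb-cKO CD103-CD11b+ DCs, with 0 called, and to 108 to 265 against 20.3 to 107 CPM in CD103+CD11b- DCs, with 1 called lower (Epcam, lost in 10 of its 21 alternatives). T cell and ILC markers, 7 genes, summed to 99.1 to 205 CPM in WT and 37.9 to 66.9 CPM in Cbfb-cKO CD103+CD11b- DCs, and to 55.6 to 174 against 41.8 to 141 CPM in CD103-CD11b+ DCs, with 0 called in both. The genotypes did not overlap in the epithelial sums of either subset and in the T cell and ILC sums of CD103+CD11b- DCs. Of single genes, 20.1% in CD103-CD11b+ and 18.1% in CD103+CD11b- DCs did not overlap. The part of these markers' cells in the differences of H2-DMb2, H2-Oa and H2-Eb2 was not tested. The 4 conventional DC markers summed to 1384 to 2260 CPM over the 12 samples.

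Of 10 genes of endosomal processing, 2 were called higher in CD103-CD11b+ DCs in WT mice, where 11.8% of all genes were, and 5 in Cbfb-cKO mice, where 9.26% were, with 0 called lower in either. Their median log2 fold change was 0.16 in WT and 0.64 in Cbfb-cKO mice, against 0.07 and 0.11 over all genes. Ctsd, the aspartic protease cathepsin D, was at 29.7, 22.9 and 22.1 against 42.3, 81.6 and 75.3 CPM in WT and at 9.99, 17.3 and 7.43 against 44.2, 47.3 and 44.9 CPM in Cbfb-cKO mice. The CD103-CD11b+ samples lay above the others in both genotypes, by 1.41 (SE 0.30, edgeR adjusted p = 0.0109) and 1.95 (SE 0.31, edgeR adjusted p = 0.00163). Lgmn, the asparaginyl endopeptidase legumain, was higher by 1.25 (SE 0.32, edgeR adjusted p = 0.0216) and 1.65 (SE 0.32, edgeR adjusted p = 0.00502). In Cbfb-cKO mice alone the cysteine cathepsins Ctsc (1.24), Ctsh (0.76) and Ctsz (0.70) were also called, with edgeR adjusted p of 0.0159, 0.0131 and 0.0480. The Ctsz call was lost in 13 of its 22 alternatives. Without Cbfb-cKO CD103+CD11b- replicate 2, Ctsc (1.10, 0.0652) and Ctsh (0.71, 0.0546) lost theirs, and Ctsc also did so without replicate 1 of that group (1.02, 0.0629) and where the 6 Cbfb-cKO samples were fitted by themselves (1.19, 0.0830). In WT mice the Ctsd call was lost without WT CD103+CD11b- replicate 2 (1.32, 0.0532), and the Lgmn call was lost without any 1 of 5 of the 6 WT samples, with values of 0.93 to 1.34. No processing gene was called with genotype, where the median was 0.34 in CD103-CD11b+ and -0.19 in CD103+CD11b- DCs, nor for the interaction (0.56).

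Among 6 factors known to act on Ciita, the ones that separated the subsets went in both directions. Irf8, an interferon regulatory factor of cDC1 development, was lower in CD103-CD11b+ DCs by 2.20 on the log2 scale in WT and by 2.13 in Cbfb-cKO mice. Prdm1, which encodes the repressor Blimp-1, was higher by 3.46 and 3.82. Irf4 was higher by 2.67 in Cbfb-cKO mice and Irf1 by 0.73 in WT mice, where the Irf1 call was lost in 11 of its 22 alternatives. With genotype, Irf4 fell in Cbfb-cKO CD103+CD11b- DCs by 1.78 on the log2 scale (SE 0.30, edgeR adjusted p = 0.0241, up to 0.113 over the alternatives). Its call was lost without WT CD103+CD11b- replicate 1 (-1.65) or 2 (-1.90) or Cbfb-cKO CD103+CD11b- replicate 1 (-1.58) or 2 (-1.80). Ciita itself differed by 0.01 in that comparison, as given above. The median of the 6 genes was 0.15 and 0.14 with genotype in CD103-CD11b+ and CD103+CD11b- DCs, 0.36 and 0.16 between subsets in WT and Cbfb-cKO mice, and 0.23 for the interaction.

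Of 7 genes for the proteins that bind class II promoters (the RFX and NF-Y subunits and Creb1), 1 was called in 1 comparison. Rfxap, an RFX subunit, was at 24.6, 25.1 and 37.5 CPM in Cbfb-cKO CD103+CD11b- DCs and 13.2, 18.8 and 15.3 CPM in Cbfb-cKO CD103-CD11b+ DCs, a difference of -0.87 (SE 0.22, edgeR adjusted p = 0.0201). The Rfxap call was lost without Cbfb-cKO CD103+CD11b- replicate 3 (-0.65, adjusted p = 0.0731) or Cbfb-cKO CD103-CD11b+ replicate 1 (-0.80, adjusted p = 0.0627) and where the 6 Cbfb-cKO samples were fitted by themselves (-0.93, adjusted p = 0.0507). The medians of the 7 genes were 0.13, -0.06, -0.10, 0.07 and 0.01 in the 5 comparisons. Of 3 genes for surface turnover, March1, a ubiquitin ligase that sends surface class II to lysosomes, was lower in CD103-CD11b+ DCs by 0.74 on the log2 scale in WT (SE 0.14, edgeR adjusted p = 0.00751) and by 0.58 in Cbfb-cKO mice (SE 0.14, edgeR adjusted p = 0.0196). March8, its relative, was lower by 1.16 in Cbfb-cKO mice (SE 0.28, edgeR adjusted p = 0.0178). In Cbfb-cKO mice the March1 call was lost without CD103+CD11b- replicate 3 (-0.48) or CD103-CD11b+ replicate 1 (-0.58) or 2 (-0.51), and that of March8 without CD103+CD11b- replicate 1 (-1.06) or CD103-CD11b+ replicate 1 (-1.09). The list had a median of 0.11 and 0.10 with genotype, 0.02 and -0.58 between subsets in WT and Cbfb-cKO mice, and 0.08 for the interaction.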

How the data were processed

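The deposited files hold raw counts per Ensembl gene for each of the 12 libraries, which the authors made from RamDA-seq libraries of sorted cells, a total RNA method for small inputs. Per the submitters' processing notes and the study's methods, reads were called with CASAVA 1.8, trimmed with Trim Galore, mapped to mm10 with STAR 2.7, freed of reads of low mapping quality and of marked duplicates, and counted on GRCm38 genes with HTSeq without strand. Between 32.7% and 38.8% of each file's total lay on genes, and the summary lines of HTSeq (61.2% to 67.3%) were left out of library sizes and tests.

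The counts were tested with edgeR 4.0.16 (R 4.3.3) in 1 quasi-likelihood model of the 4 groups, with TMM scaling and genes of 5 or more counts in at least 1 sample. The limits were an adjusted p of 0.05 (Benjamini-Hochberg) and a fold change of 1.3. Levels are CPM on TMM-scaled totals. Ratios within a sample used counts plus 0.5 and the exact permutation test. Alternatives were RLE scaling, 3 other filters on low counts, DESeq2 1.42.0, replicate blocks, fits to 6 samples, each library left out, and, chosen after seeing the data, the log2 library total as a covariate and library size without TMM. Scripts were tested on simulated data. With 3 samples a group the precision is limited by the spread between mice, and rows of under 5 counts in every sample went untested.

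The pairing by replicate number was checked by correlating deviations from group means over 14492 genes. Same-numbered Cbfb-cKO samples of the 2 subsets correlated at 0.147, 0.465 and 0.432, and differently numbered ones at -0.432 to 0.116. Same-numbered WT samples correlated at 0.473, -0.132 and 0.399. Samples of different genotypes, which cannot share a mouse, reached 0.516. Replicate 3 was also the shallowest library of both Cbfb-cKO groups. These correlations therefore cannot establish pairing, and the labels do not state it. The model of the 4 groups and the permutation tests did not use replicate numbers. The block within genotype used them in both genotypes. No pair of replicates within a group agreed within sampling noise (chi-square per degree of freedom 2.46 to 23.2).

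All 10 genes are named. Of the other pathway lists (other class II loci, endosomal processing, promoter binding factors, factors acting on Ciita, surface turnover), genes called in any comparison are named, at most 5 a list by p. The genes and lists were chosen with earlier results of these data known. Gene identifiers were named from GENCODE M21, which held 53706 of the 53801. Promoter windows were given for 7 of the 10 genes and not used here for H2-Ab1, Cd74 and Ciita. Some genes of these lists are not reported here.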

Additional observations from a re-analysis of the deposited data

Results flagged for a closer look

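For 3 genes the Cbfb-cKO samples lay on opposite sides of the WT samples in the 2 subsets. The difference of the effects was called for 1 of them, H2-Eb2. Within a single subset, the genotypes did not overlap for 20.1% (CD103-CD11b+) or 18.1% (CD103+CD11b-) of all genes tested. The share of all genes that did so in opposite directions was not counted, so how common this arrangement is cannot be said. For H2-DMb2, all 3 Cbfb-cKO samples lay above all 3 WT samples in CD103-CD11b+ DCs and below them in CD103+CD11b- DCs. The difference of the log2 effects was 0.86 (edgeR adjusted p = 0.172, not under the threshold). For H2-Oa, the samples were arranged in the same way, with a difference of 0.97 (edgeR adjusted p = 0.0908, not under the threshold, and 0.0475 with the block within genotype). For H2-Eb2, the same arrangement went with a difference of 3.15, which was called (edgeR adjusted p = 0.0179). No group of 4 or more samples was present, so single samples were not examined as outliers.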

How the results depend on the processing

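The calls of H2-DMb2 and H2-Oa between subsets in Cbfb-cKO mice held under each alternative run, with log2 differences of 0.86 to 1.13 and of 0.79 to 0.98. Of the log2 fold changes of the 10 genes under alternatives, 960 kept their direction and their side of the threshold, 18 passed it in addition and 92 changed sign. None of the sign changes was of a called value. All genes of the pathway lists and markers given with values kept their direction. H2-Oa held the fewest counts of the 10 genes, 124 to 330 per library, and the counts of the chain genes rose little with depth. Where leaving out a library left 2 samples in a group, the pooled spread of all groups was used. No cause of the differences between settings was tested.

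With genotype in CD103-CD11b+ DCs, genes called (331) numbered 573 with 5 counts in every sample, 1136 with DESeq2, 849 with the replicate block, 27 in the fit to 6 samples, and 121 to 517 with each library left out. Of the 10 genes, 2 (H2-Oa and H2-Ob) were called with the first and with DESeq2, and 1 (H2-Ob) with the replicate block. In CD103+CD11b- DCs, genes called (210) numbered 320 without a filter, 655 with DESeq2, 522 with the replicate block, and 46 to 241 with a library left out. Between subsets, genes called numbered 1410 to 4373 in WT and 2124 to 3638 in Cbfb-cKO mice with a library left out. Of the 10 genes, those called in WT were 1 with the replicate block (H2-Ob), 2 with the block within genotype or with the depth covariate (H2-DMb1 and H2-Ob), 1 with library size only (H2-Ob), and 0 to 1 with a library left out. In Cbfb-cKO mice they were 2 to 3. For the interaction, genes called (134) numbered 205 without a filter, 502 with DESeq2, 330 with the replicate block, 328 with the block within genotype and 29 to 210 with a library left out, and H2-Oa alone of the 10 (1 gene) was called with DESeq2 and with the block within genotype (0.98, adjusted p = 0.0475). Both blocks rest on shared numbers only. Same-numbered samples of the 2 genotypes correlated at 0.162, -0.180 and 0.00855 in CD103+CD11b- and at -0.00251, 0.516 and 0.203 in CD103-CD11b+ DCs. The blocks changed no other call of the 10 genes than those named here and in the report.

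Sign changes in fits of all samples were small. With the depth covariate H2-Aa (-0.011) and Ciita (-0.018, and -0.017 with library size only) turned negative with genotype in CD103+CD11b- DCs. Between subsets in WT mice H2-Aa turned positive with RLE (0.029), 5 counts in every sample (0.050), DESeq2 (0.028) and the block within genotype (0.016). H2-Eb1 turned negative with edgeR's own filter (-0.017), the replicate block (-0.029), the fit to 6 samples (-0.0087), the depth covariate (-0.074) and library size only (-0.056), and Cd74 with the block (-0.011), the depth covariate (-0.064) and library size only (-0.039). In Cbfb-cKO mice the depth covariate turned H2-Ab1 (-0.041) and Cd74 (-0.030), and H2-Ob turned with edgeR's filter (-0.0094), the fit to 6 samples (-0.027), the depth covariate (-0.0080) and library size only (-0.028). For the interaction, Cd74 turned with the block within genotype (-0.012), and H2-DMb1 with RLE (-0.028), 5 counts in every sample (-0.026), DESeq2 (-0.031) and the block within genotype (-0.016).

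With each library left out in turn, the following crossed 0. With genotype in CD103-CD11b+ DCs, H2-Aa ran from -0.023 to 0.59, H2-Ab1 from -0.087 to 0.52, H2-Eb1 from -0.086 to 0.56, Cd74 from -0.16 to 0.50, H2-DMa from -0.052 to 0.47 and H2-DMb1 from -0.11 to 0.25, each lowest without Cbfb-cKO CD103-CD11b+ replicate 3. In CD103+CD11b- DCs, H2-Aa ran from -0.055 to 0.37, H2-Ab1 from -0.053 to 0.40, H2-Eb1 from -0.029 to 0.44, Cd74 from -0.057 to 0.45, Ciita from -0.11 to 0.14, H2-DMa from -0.021 to 0.33 and H2-DMb1 from -0.049 to 0.22. Between subsets in WT, H2-Aa ran from -0.21 to 0.19, H2-Ab1 from -0.28 to 0.16, H2-Eb1 from -0.21 to 0.24 and Cd74 from -0.21 to 0.27. In Cbfb-cKO mice, H2-Aa ran from -0.20 to 0.44, H2-Ab1 from -0.33 to 0.32, H2-Eb1 from -0.29 to 0.39, Cd74 from -0.34 to 0.37, H2-DMa from -0.43 to 0.069 and H2-Ob from -0.16 to 0.13. For the interaction, H2-Aa ran from -0.20 to 0.44, H2-Ab1 from -0.28 to 0.37, H2-Eb1 from -0.31 to 0.37, Cd74 from -0.37 to 0.33, Ciita from -0.027 to 0.31, H2-DMa from -0.20 to 0.30 and H2-DMb1 from -0.23 to 0.17. The subset difference of the log2 ratio of H2-DO to H2-DM ran from -0.076 to 0.043 and that of Cd74 to the I-A chains from -0.016 to 0.029.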
